A study of Mus musculus with 2 samples.

Results

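The genes described here are 9 core genes of transforming growth factor beta (TGF-beta) signalling, of 33696 features in the count matrix. They were chosen by name: the ligands Tgfb1, Tgfb2 and Tgfb3, the receptors Tgfbr1 and Tgfbr2, and the intracellular proteins Smad2, Smad3, Smad4 and Smad7. RNA of all 9 was found. Their expression was measured in single cells of KPCY 6419c5, a mouse pancreatic ductal adenocarcinoma line. In 1 library, clones 76 and 84 of this line had been mixed in equal parts after editing for 19 days. The labels name a BASELINE system in these cells and their transfection with Cas12a-ABE, an adenine base editor built on Cas12a. Each clone grew from 1 sorted cell, so a clone is 1 founder's descendants. All cells shared the editor and the 19 days, and no unedited control was analysed. A second sample, a pool of clones 1, 32, 33, 52 and 76, was not analysed here.

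TGF-beta ligands are secreted in a latent complex and act, once released, through a receptor made of TGFBR2 and TGFBR1. The activated receptor phosphorylates SMAD2 and SMAD3, which enter the nucleus with SMAD4 and change transcription, while SMAD7 is induced by the pathway and blocks the receptor. In pancreatic ductal cancer the pathway is known for growth arrest and cell death in epithelial cells, for epithelial-to-mesenchymal transition, and for frequent loss of SMAD4.

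The 9 genes were read in a pair of expression groups called A and B. An A cell had at least 2 unique molecular identifiers (UMIs, tags that count RNA molecules) of Pde10a, Plcb1, Galnt18, Arhgap15 and Ceacam1, and at least 3 times as many of these as of the B markers. A B cell met the mirrored rule with S100a7a, Rgs20, Hs6st2, Ccbe1, Ctse and Mal. None of the 9 genes was used in the rule. Of 21361 cells that passed the filters, 7816 were A (36.6%), 8936 were B (41.8%) and 4609 were neither. Cells were not matched to clones, so A and B are not assigned to clone 76 or 84. Each group is 1 set of cells from 1 library, and cells are not replicates. Levels are therefore given as CPM (UMIs of a gene scaled to a common total of all UMIs), computed from each group's summed UMIs, with 95% Poisson intervals that cover counting error only, and no test between A and B was possible.

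Among passing cells the depth ran from 2012 to 23576 UMIs, with a median of 4953. It was 4699.5 in A cells and 5440.5 in B cells, and the median mitochondrial share was 3.19% and 1.89%. The 8 ductal epithelial markers were all detected in both groups and summed to 2771 CPM in A and 7891 CPM in B. A cells had little Krt7 (53.4 CPM, against 1358 in B), whereas Krt18 stood at 1083 CPM in A. Epcam, the epithelial adhesion molecule gene, went the other way, with 31.8 CPM in A and 3.16 CPM in B. Markers of other cell types were low in sum. The 8 fibroblast markers reached 2.19 CPM in A and 1.57 in B, with Col1a2 and Lum at 0 in both. The 8 immune markers reached 3.35 and 0.947 CPM, with C1qa among the 2 at 0. The 6 endothelial markers reached 42.1 and 8.94 CPM with Kdr at 0, and Egfl7 gave 32.6 CPM of the sum in A. Acinar markers reached 13.7 and 4.38 CPM with 4 of 6 at 0, and endocrine markers 0.0745 and 0.0758 CPM with 3 of 6 at 0.

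Tgfb2 was the gene with the largest difference of the 9 and Tgfb1 was close to even, and the sequences before their start sites are shown to put this contrast beside its DNA. The RefSeq table used (GRCm38.p6) held a promoter for 5 of the 9 genes. Tgfb3, Smad2, Smad4 and Smad7 were not in it. The build of the counts, GRCm39, is another one, so positions are those of the promoter table only. The 250 bases before the start of Tgfb1 lie at chr7:25686752-25687001 (plus strand), and those of Tgfb2 at chr1:186705990-186706239 (minus strand). Capitals mark matches, on either strand, to any of 4 motifs: the SMAD box CAGAC, the BMP-type element GGCGCC, the AP-1 site TGACTCA and the cAMP response element TGACGTCA.
Tgfb1: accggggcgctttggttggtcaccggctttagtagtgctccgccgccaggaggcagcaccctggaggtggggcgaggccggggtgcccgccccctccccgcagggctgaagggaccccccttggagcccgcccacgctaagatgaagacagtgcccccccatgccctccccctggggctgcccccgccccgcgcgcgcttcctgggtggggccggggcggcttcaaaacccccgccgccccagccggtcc
Tgfb2: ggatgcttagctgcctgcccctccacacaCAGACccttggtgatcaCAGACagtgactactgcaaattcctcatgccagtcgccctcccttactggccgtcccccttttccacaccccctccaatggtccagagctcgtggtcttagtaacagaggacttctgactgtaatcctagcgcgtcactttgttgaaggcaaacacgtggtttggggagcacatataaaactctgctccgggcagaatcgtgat
The Tgfb1 stretch is GC-rich (75.2% G or C) and held 0 matches. The Tgfb2 stretch (53.6% G or C) held 2 SMAD boxes and no match to the other 3 motifs. A SMAD box is short and common: 42.2% of 32851 promoter windows of 250 bases held at least 1. The element GGCGCC was in 9.59% of them, the AP-1 site in 4.46% and the cAMP response element in 1.55%. None of the motifs overlaps another in these stretches. The matches describe letters in a window and do not show a bound site.

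Tgfb2 (ENSMUSG00000039239, chromosome 1) had 746 UMIs or 18.5 CPM (17.2 to 19.9) in A cells and 99 UMIs or 1.88 CPM (1.52 to 2.28) in B cells. Cells in neither group lay between, at 12.7 CPM. The level was thus 9.87-fold lower in B, a log2 ratio of B over A of -3.30 (interval -3.62 to -3.00). Tgfb1 (ENSMUSG00000002603, chromosome 7), the ligand most widely expressed in adult tissues, had 25.3 CPM (23.8 to 26.9) in A and 30.9 CPM (29.4 to 32.4) in B. Its ratio was 1.22-fold, or 0.29 on the log2 scale (0.17 to 0.40). Tgfb3 (ENSMUSG00000021253, chromosome 12) was rare, with 102 UMIs or 2.53 CPM in A and 33 UMIs or 0.625 CPM in B. Its log2 ratio was -2.02 (-2.63 to -1.44). Among the ligands, B cells thus had most of their UMIs from Tgfb1, and A cells had theirs from Tgfb1 and Tgfb2.

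The receptors were nearly even. Tgfbr1 (ENSMUSG00000007613, chromosome 4), the signalling type I receptor, had 21.7 CPM (20.3 to 23.2) in A and 17.8 CPM (16.7 to 19.0) in B, a log2 ratio of -0.29 (-0.42 to -0.15). Tgfbr2 (ENSMUSG00000032440, chromosome 9), the type II receptor that binds the ligand, had 25.6 CPM (24.1 to 27.2) in A and 30.5 CPM (29.0 to 32.0) in B, a log2 ratio of 0.25 (0.14 to 0.36). Both intervals leave out 0, in opposite directions, and the folds were 1.22 and 1.19. Co-receptor Tgfbr3, betaglycan, which presents TGFB2 to the receptor, had 3 UMIs in all A cells and 4 in all B cells.

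All 4 SMAD genes were higher in B cells, Smad7 by the widest margin, except that Smad4 was even (-0.015 on the log2 scale) relative to its own chromosome. Smad7 (ENSMUSG00000025880, chromosome 18), the inhibitor, had 924 UMIs or 22.9 CPM (21.5 to 24.5) in A and 4134 UMIs or 78.3 CPM (76.0 to 80.8) in B. This is 3.41-fold, or 1.77 on the log2 scale (1.67 to 1.88), and cells in neither group lay between at 43.1 CPM. Smad2 (ENSMUSG00000024563, chromosome 18) had 44.6 CPM in A and 63.7 in B, a log2 ratio of 0.51 (0.43 to 0.60). Its partner Smad3 (ENSMUSG00000032402, chromosome 9) had 23.1 and 33.6 CPM, a log2 ratio of 0.54 (0.42 to 0.65). For Smad4 (ENSMUSG00000024515, chromosome 18), the shared partner, the levels were 44.0 CPM in A and 58.4 in B, a log2 ratio of 0.41 (0.32 to 0.49). With 1771 and 3082 UMIs, Smad4 RNA was present in both groups.

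**Figure D1:**
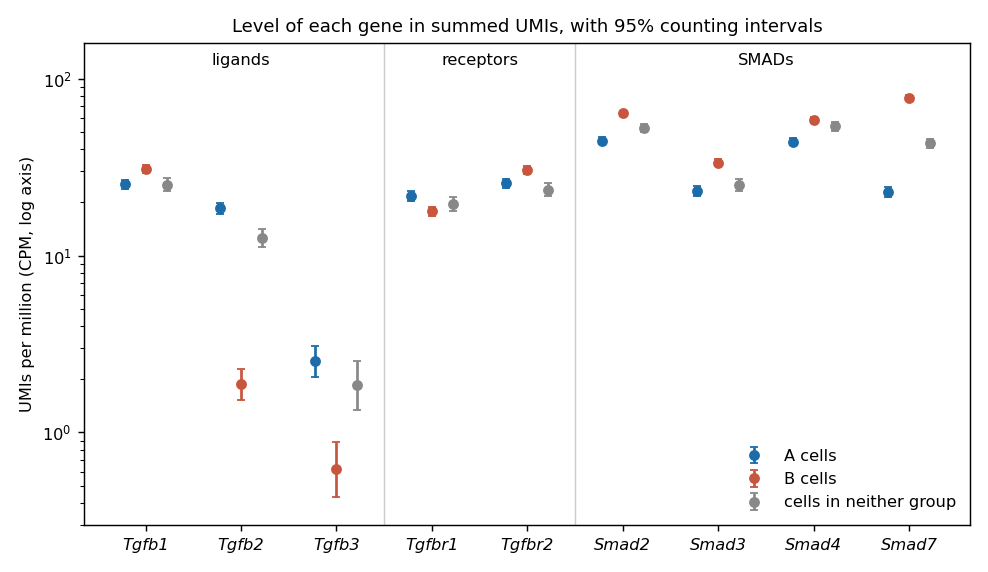
Level of each gene in A cells (blue), B cells (red) and cells in neither group (grey), as CPM of summed UMIs on a log axis; bars are 95% counting intervals. Tgfb2 stands at 18.5 CPM in A and 1.88 in B, Smad7 at 22.9 and 78.3, and cells in neither group lie between A and B for every gene but Tgfb1 and Tgfbr2.

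These ratios were read against all genes. Of 9715 genes with a mean of at least 5 CPM over A and B, 6.97% were past 2-fold higher in B, 10.2% past 2-fold lower, and 17.2% either way. Of the 9 genes, 8 reached that mean, 1 was past 2-fold higher in B (Smad7) and 1 past 2-fold lower (Tgfb2). A count of 2 among 8 is near the 17.2% of all genes, so it is no result about the 9 genes as a set. Tgfb2 reached the mean through A cells, and Tgfb3 did not reach it, at 1.58 CPM. The median log2 ratio of the 8 was 0.35, against -0.17 for all genes, and with ratios centred on that -0.17 Tgfbr1 moved to -0.11 and Tgfbr2 to 0.42.

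Within A cells the order of levels was Smad2, Smad4, Tgfbr2, Tgfb1, Smad3, Smad7, Tgfbr1, Tgfb2 and Tgfb3. Smad2 and Smad4 overlapped in their intervals and stood above the rest, and each neighbour from Tgfbr2 down to Tgfbr1 overlapped the next. In B cells Smad7 led, above Smad2 and then Smad4, with no overlap between these 3. Smad3, Tgfb1 and Tgfbr2 followed with overlapping neighbours, then Tgfbr1, Tgfb2 and Tgfb3. Smad7 ranked 6 in A and 1 in B. The chemistry counts a molecule at its 3′ end, so CPM was not divided by gene length, and genes may differ in how well they are captured. The 9 genes summed to 228 CPM in A and 316 CPM in B.

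The ratios were set beside those of other genes on the same chromosomes, a comparison chosen after the values were seen. Copy number was not measured, and the part of the chromosome in a gene's ratio was not tested. On chromosome 18, which carries Smad2, Smad4 and Smad7, the 263 genes past the mean had a median log2 ratio of 0.42, and 76.8% of them were higher in B, against 36.9% of all genes. The 10 nearest measured genes around Smad2 had a median of 0.47 and those around Smad4 a median of 0.63. Relative to the median of chromosome 18, Smad2 was at 0.09, Smad4 at -0.015 and Smad7 at 1.35. Smad2 and Smad4 were thus higher in B by about as much as the typical gene of their chromosome. Smad7 stood above 8 of its 10 neighbours (median 0.50) and at percentile 91.3 of the chromosome.

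Chromosome 7, with Tgfb1, went the other way: the median of its 653 genes was -0.62, and 11.6% of them were higher in B. Tgfb1, at 0.29, was above 9 of its 10 neighbours (median -0.79) and was 0.91 above the chromosome's median. The lowest of those neighbours, Ceacam1, is a marker of the A rule. Tgfb2 was below all 10 of its neighbours, which ran from -0.76 to 1.00 with a median of -0.04. Tgfb3 was also below all 10 of its neighbours, and Smad3 was above 9 of 10. For both receptors the ratio lay inside the range of the 10 neighbours.

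**Figure D2:**
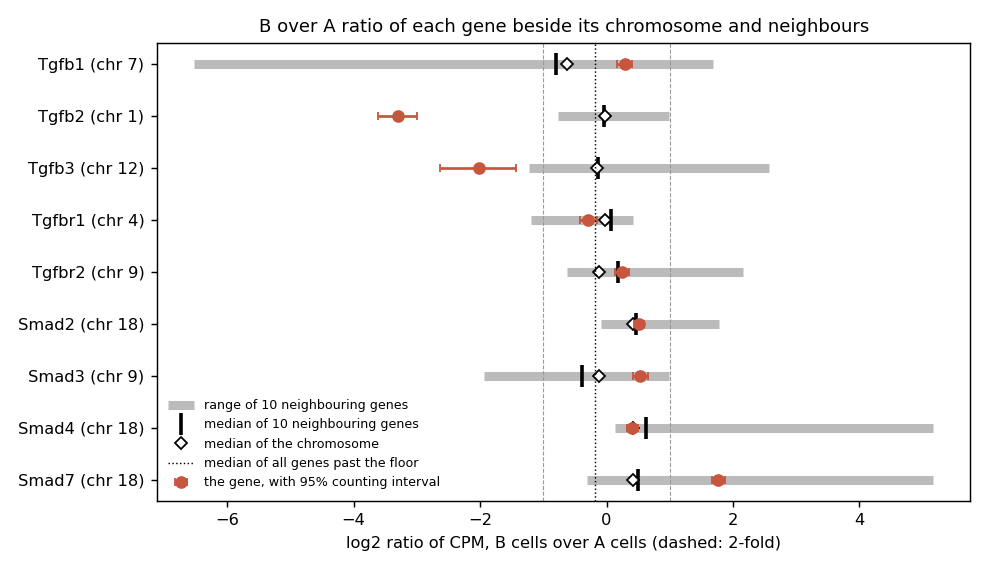
Log2 ratio of CPM, B over A, for each gene (red, with 95% counting interval) beside the range (grey bar) and median (black tick) of its 10 neighbouring genes, the median of its chromosome (diamond) and of all genes (dotted); dashed lines mark 2-fold. Smad2 (0.51) and Smad4 (0.41) sit beside the chromosome 18 median of 0.42, while Smad7 (1.77) and Tgfb2 (-3.30) sit away from theirs.

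Depth and mitochondrial share differ between A and B, so the leading genes were also read within each group after ranking cells and dividing them into 3 equal sets. By depth, Smad7 ran from 22.8 to 23.0 CPM in A and from 74.6 to 79.7 CPM in B. By mitochondrial share it ran from 21.2 to 24.2 CPM in A and from 76.9 to 79.5 in B. Smad7 was thus near its group's level in each set. The sets were made within each group, and their median mitochondrial shares did not meet (2.63% to 3.87% in A, 1.56% to 2.28% in B), so A and B were not compared at a like mitochondrial share. Tgfb2 varied more within A: 14.3 CPM in the cells with the lowest mitochondrial share, 17.6 in the middle and 24.2 in the highest. In B it was 1.59, 1.47 and 2.58 CPM. By depth it was 21.2, 18.6 and 17.2 CPM in A, from the shallowest cells to the deepest, and 0.892, 1.90 and 2.36 in B. The lowest A set (14.3 CPM) was above the highest B set (2.58 CPM). What part mitochondrial share or depth has in these levels, within a group or between A and B, was not tested.

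RNA released from other cells can enter any droplet, which sets a low level in cells that do not make a gene. For the 11 genes of the rule the level in the opposite group was 0.644% to 2.69% of the level in their own, a range that the rule itself holds low. Of genes outside the rule, chosen after their values were seen, Grem1, Atoh8, Acta2 and Bambi in B were 2.92% to 4.36% of their levels in A, and Itgb6 in A was 2.47% of its level in B. Tgfb2 in B was 10.1% (8.23 to 12.3) of its level in A, above the values just given. Ltbp1 in A was 8.77% (7.38 to 10.4) of its level in B, an interval that overlaps that of Tgfb2. The genes outside the rule were picked, so they set no common level of released RNA. Smad7 in A was 29.3% of its level in B. How much of the Tgfb2 in B cells is released RNA or mixed droplets was not tested.

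Detection per cell was sparse. With every cell thinned to 3000 UMIs (410 A and 109 B cells with fewer were left out), Smad7 had a UMI in 6.74% of A cells (6.18 to 7.33) and in 20.3% of B cells (19.4 to 21.1). Tgfb2 was seen in 5.10% of A cells (4.61 to 5.63) and 0.487% of B cells (0.353 to 0.656). Without thinning these shares were 11.1% and 35.2% for Smad7, and 8.57% and 1.05% for Tgfb2. Smad2 had a UMI in 12.6% of A and 17.6% of B cells, Smad4 in 12.6% and 16.2%, and Smad3 in 6.70% and 9.83%. For Tgfb1 the shares were 7.66% and 8.75%, for Tgfbr1 6.54% and 5.26%, for Tgfbr2 7.37% and 8.18%, and for Tgfb3 0.824% and 0.181%. The shares follow the order of the CPM between A and B for all 9 genes. At unthinned depth the highest count of any of these genes in a cell was 6 UMIs, of Tgfb2 in an A cell.

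At least 1 of the 9 genes was seen in 49.5% of thinned A cells (48.3 to 50.6) and 60.6% of thinned B cells (59.6 to 61.6), with a mean of 0.661 and 0.867 genes per cell. A ligand was seen in 13.1% of A and 9.36% of B cells, and at least 1 of Smad2, Smad3 and Smad4 in 28.5% and 37.5%. A ligand and a receptor were seen in the same cell in 1.71% of A and 1.43% of B cells. Both receptors appeared in 39 of 7406 A cells (0.527%) and 36 of 8827 B cells (0.408%). At this depth a cell without a UMI of a gene cannot be called a cell that lacks it.

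Co-detection was compared with the number of cells expected if genes were seen independently within a group. Over the 36 pairs of the 9 genes, A cells held 1475 co-detections against 1398.4 expected, a ratio of 1.05 (1.002 to 1.11). B cells held 2819 against 2767.7, a ratio of 1.02 (0.981 to 1.06). Pearson correlations of log counts across cells ran from -0.0276 to 0.0323 in A (median 0.00172) and from -0.0161 to 0.0353 in B (median 0.000855). Pairs share cells and thinned depth, so these are descriptions. The ligands, receptors and SMADs were seen together about as often as separate detection of each would give.

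Of 36 pairs the counting interval lay above 1 for 2 in A and 1 in B, and below 1 for 1 in A and 0 in B. In A cells Smad3 and Smad7 met in 47 cells against 33.4 expected (ratio 1.41, 1.03 to 1.87), and Tgfb1 and Smad2 in 90 against 71.4 (1.26, 1.01 to 1.55). Tgfbr2 and Smad3 met in 23 A cells against 36.6 (0.629, 0.399 to 0.944). In B cells the pair above 1 was Tgfb1 and Tgfbr2, in 83 cells against 63.1 (1.31, 1.05 to 1.63). These are 3 different pairs in A and another in B, and correlations this weak in sparse counts are no finding.

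**Figure D3:**
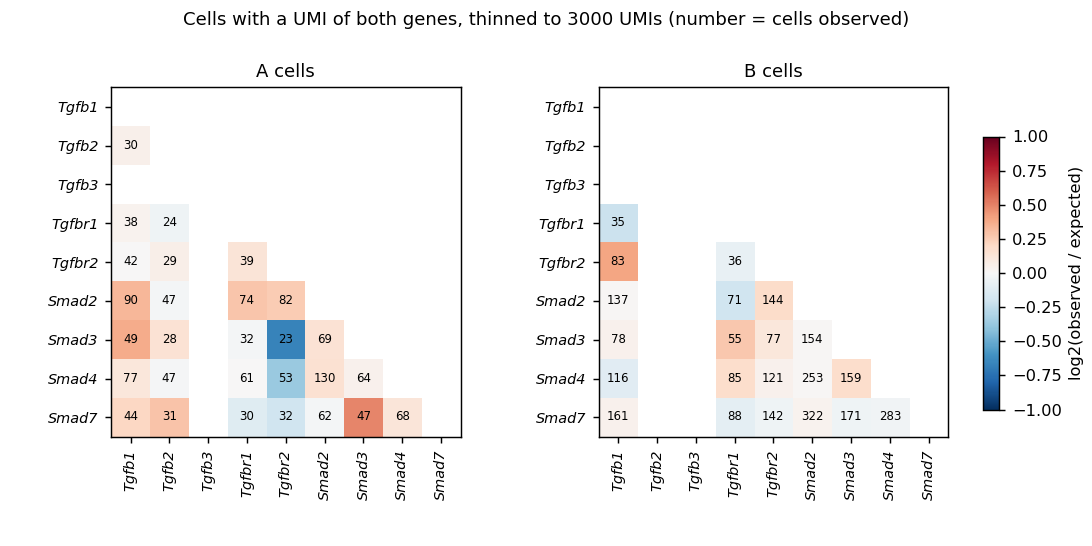
Cells with a UMI of both genes of a pair, after thinning to 3000 UMIs, in A cells (left) and B cells (right); the number is the cells observed, the colour is log2 of observed over expected, and pairs with fewer than 10 expected are blank. Most squares are pale, and the ratio ran from 0.629 to 1.41 over 28 pairs in A and from 0.862 to 1.31 over 21 pairs in B.

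The genes most like Smad2 and Smad7 from cell to cell were named by the highest Pearson correlation across thinned cells. The comparison took 6854 genes in A and 6411 in B that were seen in at least 5% of cells. For Smad2 these were Gse1 (0.0478), Arhgap35 (0.0449) and Ncoa3 (0.0420) in A, and Trnt1 (0.0429), Ginm1 (0.0428) and Cdh2 (0.0410) in B. For Smad7 they were Pacsin2 (0.0536), Glis2 (0.0482) and Plin2 (0.0467) in A, and Snx13 (0.0563), Myl6 (0.0501) and Dusp5 (0.0493) in B. The 99th percentile over all genes compared was between 0.0275 and 0.0297. No gene was among the leading 3 in both groups.

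Cells of A and of B were further divided by markers of state that are not among the 9 genes. A cells with Tnc and Acta2 (contractile-marker, 1184 cells, median 5284.5 UMIs) were set against A cells with S100g and Epcam (epithelial-marker, 1308 cells, 4626 UMIs). Acta2 and Tnc are genes of smooth muscle, wound matrix and mesenchymal cells. Of 9744 genes with enough UMIs, 1.27% were past 2-fold higher in the contractile-marker cells and 3.29% past 2-fold lower. None of the 9 genes was past 2-fold. Smad7 was 28.5 CPM in contractile-marker and 21.3 in epithelial-marker cells, a log2 ratio of 0.42 (0.10 to 0.74). Tgfb2 was 21.9 and 16.8 CPM, a ratio of 0.38 (0.02 to 0.75), and Tgfbr2 was 30.5 and 24.1 CPM, a ratio of 0.34 (0.04 to 0.65). The intervals of the other 6 genes held 0.

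Some other genes of the pathway differed more between these A cells than the 9 genes did. Fn1, fibronectin, was 334 CPM in contractile-marker and 68.3 in epithelial-marker cells, a log2 ratio of 2.29 (2.14 to 2.44). Ccn2, a matricellular growth factor partner, was 131 and 47.2 CPM (1.47, 1.29 to 1.66). Inhba, the activin A subunit, was 11.0 and 1.21 CPM (3.19, 2.14 to 4.45). Pmepa1, a membrane protein that holds back SMAD2 and SMAD3, was 259 and 165 CPM (0.65, 0.54 to 0.76). Acta2 is on the target list too, but it chose these cells and is no evidence.

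B cells with Krt14 and Sprr1a (squamous-marker, 541 cells, median 6097 UMIs) were set against B cells with Areg, Btc and Cftr (Areg-marker, 4714 cells, 5530.5 UMIs). Krt14 and Sprr1a are genes of stratified epithelium. Here 0.389% of 9504 genes were past 2-fold higher in Areg-marker cells and 1.96% past 2-fold lower, and again none of the 9 genes that had enough UMIs. Smad7 was 75.8 CPM in Areg-marker and 101 in squamous-marker cells, a log2 ratio of -0.41 (-0.58 to -0.25). Both receptors were lower in Areg-marker cells as well, Tgfbr1 with 15.7 against 22.3 CPM (-0.50, -0.86 to -0.14) and Tgfbr2 with 27.5 against 36.8 CPM (-0.42, -0.69 to -0.14). The intervals of the ligands and of Smad2, Smad3 and Smad4 held 0. Among other pathway genes, Ccn2 (-0.63) and Thbs1 (-1.67) were also lower in Areg-marker cells, Pmepa1 was even (-0.05, -0.11 to 0.01), and Id1 (0.43) and Id3 (0.38) were higher. The states within a group thus moved Smad7 by less than its 3.41-fold between A and B.

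**Figure D4:**
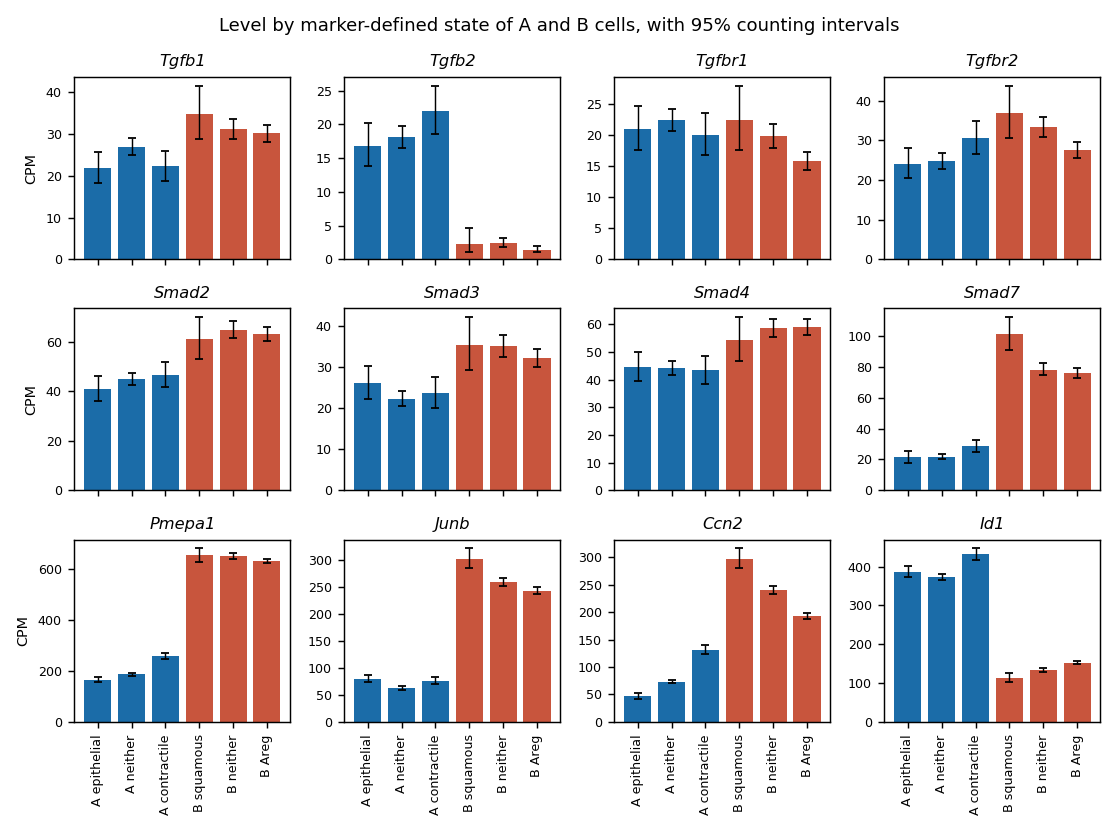
CPM of 8 of the 9 genes and of 4 pathway genes by marker-defined state within A (blue) and B (red), with 95% counting intervals and axes from 0. Smad7 is at 28.5 CPM or less in every A state and at 75.8 CPM or more in every B state, and Tgfb2 is at 16.8 CPM or more in A and at 2.44 or less in B.

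The wider pathway was read in 8 lists of 86 genes. Of these, 55 reached the mean of 5 CPM, 12 were past 2-fold higher in B and 16 past 2-fold lower, beside 6.97% and 10.2% of all genes. The median log2 ratio of the 55 was 0.02. Several genes reached the mean through 1 group alone, so the counts, here and for each list below, describe these genes and support nothing further. The same shares of all genes are the background to each list's counts.

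Genes that store and release latent TGF-beta split between the groups. Of 11 in the list, 6 reached the mean, 3 were past 2-fold higher in B and 1 lower, with a median of 0.72. Itgb6, the beta subunit of the integrin that activates latent TGF-beta on epithelial cells, had 1.09 CPM in A and 44.2 in B (log2 ratio 5.34, 4.91 to 5.80). Its partner subunit Itgav was even at 65.7 and 66.6 CPM. Ltbp1 and Ltbp3, which tether the latent complex, had 3.48 and 14.5 CPM in A and 39.6 and 34.8 CPM in B (log2 ratios 3.51 and 1.27). Thbs1, thrombospondin 1, another activator, went the other way, with 101 CPM in A and 17.7 in B (-2.51, -2.61 to -2.40). Itgb6, Ltbp1 and Ltbp3 were thus higher in B cells and Thbs1 higher in A cells.

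Related ligands and antagonists were mostly higher in A or even. Gdf15, a stress-induced ligand, had 118 CPM in A and 9.25 in B (-3.68), whereas Inhba had 4.47 and 20.2 CPM (2.18). Bmp2 (32.9 and 25.5 CPM) and Bmp4 (20.2 and 26.1 CPM) stayed within 2-fold. Of 10 related ligands, 4 reached the mean, 1 higher and 1 lower in B. Among 9 antagonists 4 reached it and 2 were past 2-fold lower in B, with a median of -0.997. Grem1, gremlin, which binds BMPs, had 257 CPM in A and 7.49 in B (-5.10), and Fst, follistatin, which binds activins, had 9.78 and 2.65 CPM (-1.88). Lefty1, an antagonist of nodal, was even at 11.1 and 11.2 CPM.

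Of 11 co-receptors and related receptors, 6 reached the mean, 0 were past 2-fold higher in B and 2 lower, with a median of -0.07. The activin receptor genes Acvr2a (40.2 CPM in A, 17.4 in B, log2 ratio -1.21) and Acvr1b (10.4 and 4.87 CPM, -1.10) were the pair that was lower. The BMP receptor genes Bmpr2 (55.6 and 66.8 CPM) and Bmpr1a (46.1 and 34.9 CPM) stayed within 2-fold. The BMP-branch SMADs and the inhibitor Smad6 had a median of -1.06, with 3 of 4 past the mean and 2 lower in B. Smad1 had 44.3 and 21.2 CPM (-1.06) and Smad6 13.7 and 3.60 CPM (-1.93), while Smad5 had 9.93 and 8.34 CPM. The inhibitory SMAD genes thus lay in opposite directions, Smad6 higher in A and Smad7 higher in B.

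Readouts of the BMP branch were mostly lower in B. Of 8 BMP target genes 4 reached the mean, 3 were past 2-fold lower in B and 0 higher, with a median of -1.50. The shares over all genes were 10.2% lower and 6.97% higher. Id1 had 386 CPM in A and 142 in B (log2 ratio -1.44), Id3 359 and 122 CPM (-1.56), and Atoh8 37.1 and 1.25 CPM (-4.89). Id2 was the exception, with 129 and 236 CPM (0.87). The ID proteins are inhibitors of basic helix-loop-helix factors that BMP signalling induces.

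Of 20 TGF-beta target genes 16 reached the mean, 7 were past 2-fold higher in B and 4 past 2-fold lower, with a median of 0.23. The shares over all genes were 6.97% higher and 10.2% lower. Among those higher in B were Ccn2 (78.8 CPM in A, 219 in B), Cdkn1a (2.68 and 24.4 CPM), Junb (67.7 and 254 CPM), Klf10 (6.80 and 24.4 CPM), Bhlhe40 (19.5 and 42.8 CPM) and Pdgfb (1.24 and 28.9 CPM). Their log2 ratios ran from 1.13 for Bhlhe40 to 4.54 for Pdgfb. Lower in B were Fn1 (167 and 17.9 CPM, -3.22), Acta2 (144 and 5.89 CPM, -4.61), Snai2 (23.3 and 8.07 CPM, -1.53) and Zeb2 (27.5 and 8.66 CPM, -1.67). Tpm1 (719 and 835 CPM) and Ccn1 (184 and 219 CPM) stayed within 2-fold. The genes higher in A include matrix, smooth muscle and mesenchymal transcription factor genes, and those higher in B include a cell cycle inhibitor and immediate-early factors. Many of these genes also answer to other signals.

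Intracellular regulators mostly stayed within 2-fold, with 12 of 13 past the mean, 10 of them within 2-fold, 1 higher in B, 1 lower and a median of 0.15. Within 2-fold is not always even. Ski (0.77, 0.66 to 0.88) and Skil (0.55, 0.48 to 0.62) were higher in B, while Smurf2 was even (-0.08, -0.18 to 0.03). Pmepa1, which like Smad7 is induced by TGF-beta and restrains it, had 196 CPM in A and 641 in B (1.71, 1.68 to 1.75). Bambi, a pseudoreceptor that blocks TGF-beta family receptors, had 10.9 CPM in A and 0.474 in B (-4.52, -5.16 to -3.94). Usp15 (138 and 143 CPM) and Trim33 (104 and 123 CPM), a deubiquitinase and a ubiquitin ligase of the pathway, stayed within 2-fold.

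**Figure D5:**
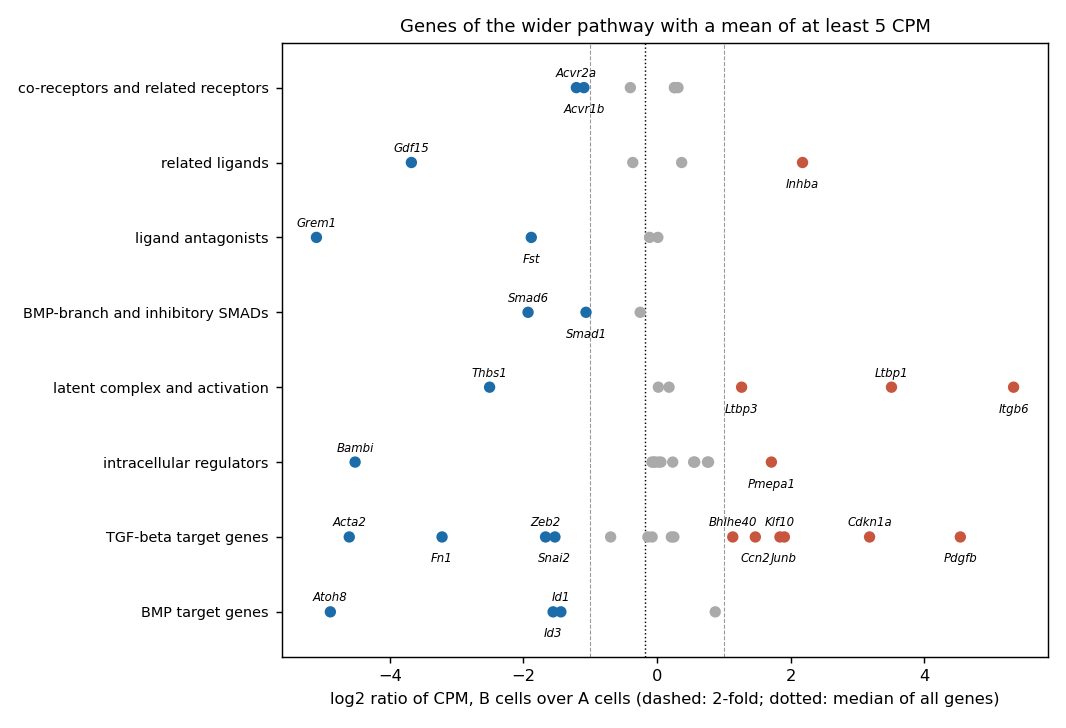
Log2 ratio of CPM, B over A, for the genes plotted from 8 pathway lists, with a mean of at least 5 CPM; red is past 2-fold higher in B, blue past 2-fold lower, dashed lines mark 2-fold and the dotted line the median of all genes (-0.17). Itgb6 (5.34) and Pdgfb (4.54) lie farthest to the right and Grem1 (-5.10) and Atoh8 (-4.89) farthest to the left.

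The stretches before Itgb6, the gene farthest towards B, and Id3, a BMP target lower in B, are printed as examples from both ends. The first lies at chr2:60722604-60722853 (minus strand) and the second at chr4:136143572-136143821 (plus strand), in RefSeq GRCm38.p6, with the same 4 motifs in capitals.
Itgb6: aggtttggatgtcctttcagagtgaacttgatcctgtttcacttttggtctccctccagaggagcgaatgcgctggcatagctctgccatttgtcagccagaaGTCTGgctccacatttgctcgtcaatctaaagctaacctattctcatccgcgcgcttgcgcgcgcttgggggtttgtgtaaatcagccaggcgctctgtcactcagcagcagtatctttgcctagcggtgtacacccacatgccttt
Id3: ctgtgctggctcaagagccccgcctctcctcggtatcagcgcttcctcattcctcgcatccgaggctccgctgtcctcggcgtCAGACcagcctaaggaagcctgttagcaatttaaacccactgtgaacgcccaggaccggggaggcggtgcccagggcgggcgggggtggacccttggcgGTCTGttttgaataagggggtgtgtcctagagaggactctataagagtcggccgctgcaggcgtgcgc
Itgb6 held 1 SMAD box and Id3 held 2, and neither held another of the motifs. The table lists 2 starts for Itgb6, and the first is shown. With a SMAD box in 42.2% of all windows, these matches do not set the genes apart.

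Target genes were also compared between cells with and without a UMI of each of the 9 genes. The correlation across cells with the TGF-beta target list ran from -0.00262 to 0.0245 over the 9 genes in A and from -0.00194 to 0.0536 in B, where Smad7 was highest. Thinned B cells with a Smad7 UMI had 2138 CPM of the TGF-beta target list and those without had 1986 CPM. In A cells the levels were 1876 and 1751 CPM. A cells with a Smad7 UMI had 1019 CPM of the BMP target list, against 893 CPM without (correlation 0.0424). The other way, A cells with a Tgfbr2 UMI had 815 CPM (772 to 860) of the BMP target list, against 908 CPM without (correlation -0.0337). For both lists the ratio of levels was largest for Tgfb2 in B. The 43 B cells with a Tgfb2 UMI had 2597 CPM (2326 to 2890) of the TGF-beta target list, against 2014 CPM in the other B cells, and 659 CPM (526 to 815) of the BMP target list, against 496 CPM. The TGF-beta list includes genes higher in A, such as Fn1 and Acta2. Single feedback genes did not move together in these 43 cells. Smad7 had 38.8 CPM (12.6 to 90.5) against 77.1, and Pmepa1 589 CPM (464 to 737) against 644. Skil had 140 CPM (82.7 to 221) against 89.9. Each of these intervals held the level of the other B cells. The 16 B cells with a Tgfb3 UMI had 2521 CPM (2092 to 3012) of the TGF-beta target list, against 2016 CPM. Tgfb2 is also an A-group gene by level, and the part of mixed droplets in these few cells was not tested. These cells share 1 library, so the values are descriptions.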

How the data were processed

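The deposited matrix holds raw UMI counts per gene and barcode, written by Cell Ranger 8.0.1 per the file headers, with GRCm39 as the build per the submitters' processing notes. The chemistry was 3′ v4 per the labels' protocols. The authors' annotation, intron setting and cell calling are not given in the sources used here. The library held 22178 barcodes and 116505698 UMIs.

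The cell filter was a minimum of 2000 UMIs and of 1000 genes and a maximum of 15% mitochondrial UMIs, which kept 21361 cells and removed 817 barcodes. Doublets were not removed in the main values. Scrublet in scanpy 1.11.5 (expected rate 0.08) was used as an alternative and marked 778 cells (3.64%). Cells were placed in A or B by summed markers (minimum 2, and 3 times the other sum). Of the 4609 cells in neither, 3966 had too few marker UMIs and 643 (median 7911 UMIs) had markers of both.

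UMIs were summed per group and scaled to CPM, with exact Poisson intervals. Ratios have exact conditional binomial intervals and shares have Clopper-Pearson intervals (95%, Python 3.11.15, scipy 1.17.1). All cover counting error only. With 1 library no test was run. Past 2-fold was called at a mean of at least 5 CPM. Shares and co-detection used cells thinned to 3000 UMIs. The steps were tested on simulated data.

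The genes named were the 9, the 3 of each list with the most UMIs and every list gene past 2-fold, of which some are not reported here, plus 3 correlated genes for each of Smad2 and Smad7. Markers, Tgfbr3, Ski, Skil, Smurf2 and genes read for released RNA were named besides. The 9 genes and the lists were chosen with earlier results of these data known. Chromosomes and gene order came from GENCODE M21, another build, in which 31961 of 33696 features matched by identifier. Alternatives were other cell filters, marker rules, scalings, depths and floors.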

Additional observations from a re-analysis of the deposited data

Results flagged for a closer look

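The 9 genes also gave UMIs in cells that the comparison of A and B leaves out. Cells in neither group (4609) held 5805 UMIs of the 9 genes, or 258 CPM (251 to 264), above the 0.133 CPM that 3 UMIs make there. The 817 barcodes removed by the cell filter held 426 UMIs of them, or 453 CPM (411 to 498), above the 3.19 CPM that 3 UMIs make there. A and B cells stood at 228 and 316 CPM.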

How the results depend on the processing

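The share of A and B cells moved with the filter and the marker rule: 31.4% and 53.4% under the strict filter, 20.9% and 29.4% with at least 4 marker UMIs and 5 times the other sum, and 41.7% and 44.5% with 1 marker UMI and none of the other. With marked doublets removed, A cells were 37.3%. The cause was not tested. At a floor of 50 CPM, 1 of the 9 genes (Smad7) stayed past 2-fold, since Tgfb2 is below that floor, and the pathway lists had 3 genes higher and 7 lower in B, fewer genes being read. Centred on the median of all genes (-0.17), the lists had 13 genes higher and 14 lower, against 12 and 16. At least 1 of the 9 genes was seen in 66.3% of A and 81.7% of B cells without thinning, 36.1% and 47.6% at 2000 UMIs, and 70.4% and 84.1% at 6000 UMIs. These settings differ both in depth and in the cells deep enough to be kept. Co-detection in B was 0.976 of that expected at 2000 UMIs. Of 108 ratios of single genes recomputed, 90 stayed within the main counting interval and 17 moved outside it. The remaining 1 turned direction: Smad4 was -0.015 relative to its own chromosome, an alternative added after seeing the data. In that alternative Smad2 moved to 0.09 and Tgfb1 to 0.91. Tgfb2 ran from -3.81 (only cells with 4000 to 6000 UMIs) to -2.99 (strict filter), Tgfb3 from -2.53 to -1.76 and Smad7 from 1.35 to 1.95. No paired analysis was possible because there is 1 library.

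With 1 library there is no replicate of A or B, and the spread between cultures or libraries is not known. Depth limits the rest: single genes were seen in at most 20.3% of thinned cells, Tgfb3 rests on 102 and 33 UMIs, and most pairs of genes met in few cells.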
